A study of Rattus norvegicus with 8 samples.

Results

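The genes described here encode 10 proteins that the glands and lining cells of the airway secrete or need for secretion: the mucins Muc5b and Muc5ac, the BPI-fold proteins Bpifb1 and Bpifa1, the secretoglobins Scgb3a1 and Scgb1a1, and Dmbt1, Agr2, Tff3 and Ltf. The list was chosen by gene symbol from the table of thyroarytenoid (TA) muscle, the muscle of the vocal fold, by a choice made with the genotype results of the same table known. Of the 10 genes, 6 have an entry among the 14016 entries of the table, each on 1 entry. Muc5ac, Dmbt1, Tff3 and Ltf have none, also under any older symbol that RefSeq lists (it lists none for Ltf), so no level is given for them.

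TA muscle came from 8 male Long Evans rats, 4 of genotype Pink1-/- and 4 WT, all 8 months old. Pink1-/- rats lack both copies of the gene for a mitochondrial kinase, the loss of which causes an early form of Parkinson's disease in humans. RNA was sequenced in bulk, so a whole piece of tissue was read at once. The table holds 0 columns of values per rat. Its other numbers are a finished comparison of the genotypes, which was not used, so each value below is a level averaged over all samples of both genotypes. No difference between Pink1-/- and WT and no test is therefore given, and these averages show no spread between rats.

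The airway and larynx are lined by a film of mucus that glands in the wall and goblet cells at the surface supply. Gel-forming mucins give the film its thickness. Small proteins made by serous and club cells bind microbes and lipids in it. Glands lie beneath the mucosa close to the vocal fold. Which cells the counts below came from was not tested. In a bulk sample, more secretory cells and more RNA per secretory cell cannot be told apart.

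Levels are log2 CPM, the share of all counts that falls on a gene, scaled to a fixed total. Long transcripts gather more counts than short ones. Transcript lengths were not available, so values of different genes are shares of counts and not an order of abundance. Over all entries the median was 3.14 on the log2 CPM scale, and the middle of the distribution ran between quartiles of 1.73 and 4.49. Entries ranged between -1.34 and 18.20.

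Muc5b, the main gel-forming mucin of airway glands, had an average level of 11.74 log2 CPM, or 3423 CPM. Its entry is ENSRNOG00000019846. The share of counts was at rank 19 of 14016 entries, in a tissue labelled as muscle. Muc5b alone held 0.336% of the summed CPM of the table. Among the members with an entry it held 86.5% of their summed CPM of 3959, which is itself 0.389% of all entries. Its transcript is very long, and the share is not corrected for that. Muc5ac, the gel-forming mucin best known from goblet cells, lies next to Muc5b in the order of protein-coding genes of the RefSeq assembly GRCr8. The next genes on that side, Muc2 and Muc6, also encode gel-forming mucins and have no entry. On the other side, Tollip, an adaptor of innate immune receptors, was at 4.67 log2 CPM. The family therefore had an entry for 4 of its 14 protein-coding genes whose symbol is Muc and a number. Besides Muc5b these were Muc1 at 1.90, Muc20 at 1.08 and Muc15 at -0.79 log2 CPM, which encode mucins anchored in the cell surface. Muc5b was the only gel-forming mucin among them.

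Agr2, a protein disulfide isomerase of the endoplasmic reticulum that mucin folding needs in mouse intestine, had an average level of 5.81 log2 CPM, or 56.0 CPM. Its entry, ENSRNOG00000005023, was at percentile 90.9 of all entries. Agr3, its paralog and its neighbor in the genome, has no entry. The neighbor on the other side, Tspan13, was at 4.93 log2 CPM. A separate list, not based on genome position, holds genes of mucin glycosylation and of protein folding. Of 14 listed genes of that kind, 12 had an entry, with a median of 3.84 and a range between 0.82 and 7.10 log2 CPM. The highest were Hspa5, a chaperone of the endoplasmic reticulum, at 7.10, Pdia4, another disulfide isomerase, at 5.13, C1galt1, which extends the first mucin sugar, at 4.99, and Ern1, a sensor of unfolded proteins, at 4.91. These 4 are made in most cell types. Ern2, a relative of Ern1 found in mucous cells, was at 0.82 log2 CPM.

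**Figure D1:**
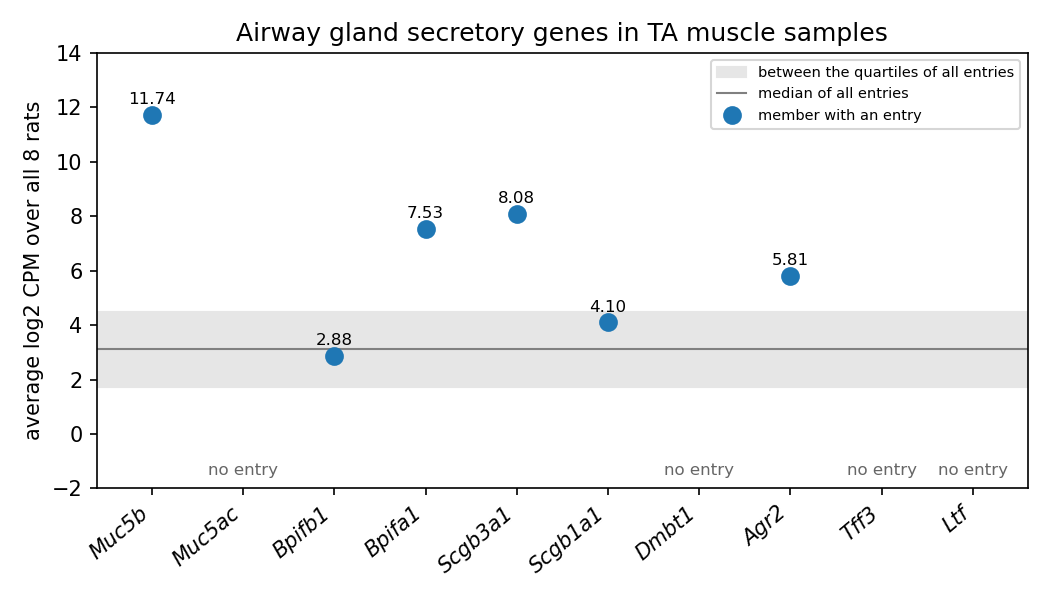
Average log2 CPM of each of the 10 listed genes over the 8 rats, both genotypes together (y axis). Points are the values in the deposited table, with no error bars since rats were not listed singly; the gray band runs between the quartiles of all entries, 1.73 and 4.49, and the line is their median, 3.14. Muc5b stands highest at 11.74, Bpifb1 lowest at 2.88, and 4 genes have no entry.

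The secretoglobins, small proteins that pair up and bind lipids, stood far from each other. Scgb3a1, made in airway secretory cells, had an average level of 8.08 log2 CPM, or 270 CPM, at rank 168 of all entries (entry ENSRNOG00000002718). Scgb1a1, the classical product of club cells in the lower airway, was at 4.10 log2 CPM, or 17.1 CPM, at percentile 68.3 (entry ENSRNOG00000020196). Both are short transcripts. Of 12 protein-coding genes with a symbol of this family in RefSeq, these 2 had an entry. Scgb3a2, another secretoglobin of the airways, had none. Scgb1a1 lies between Ahnak, at 11.19, and Asrgl1, at 2.12 log2 CPM, and the secretoglobin genes Scgb1d2l1 and Scgb1d2, just beyond Asrgl1, had no entry.

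The BPI-fold proteins, which resemble a lipopolysaccharide-binding protein of neutrophils, also stood apart. Bpifa1, an abundant antimicrobial and surface-active protein of the upper airway, had an average level of 7.53 log2 CPM, or 185 CPM, at rank 271 (entry ENSRNOG00000013859). Bpifb1, a longer relative known from airway goblet and gland cells, was at 2.88 log2 CPM, or 7.36 CPM, at percentile 45.0 (entry ENSRNOG00000015468). It was the one member below the median of all entries. In RefSeq order only Bpifa5, which has no entry, lies between Bpifa1 and Bpifb1. Of 13 protein-coding genes of the family, 4 had an entry. The other two were Bpifb2 at 5.60 and Bpifa2f at 1.82 log2 CPM.

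**Figure D2:**
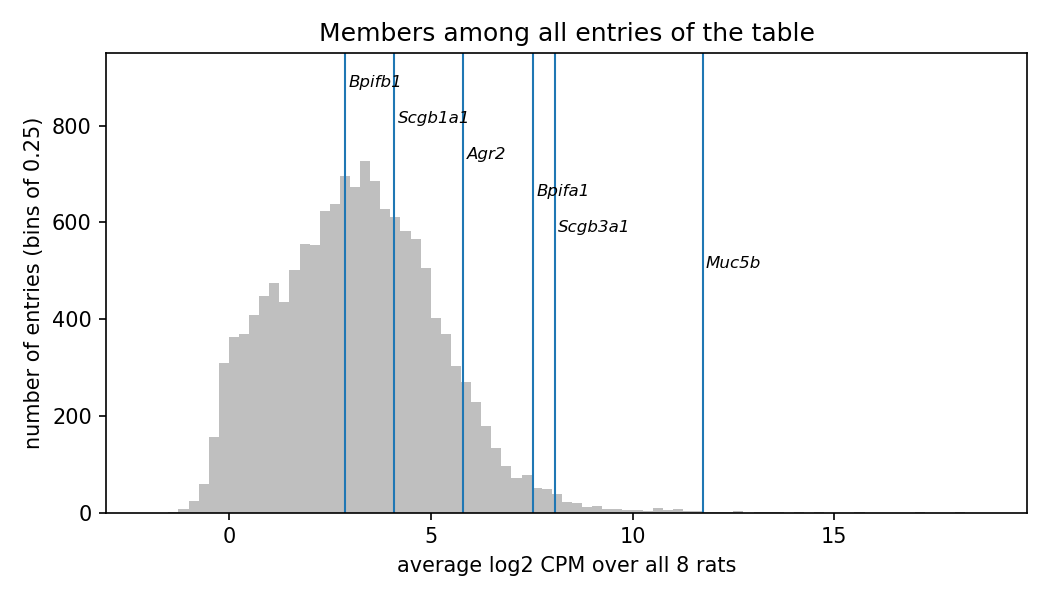
Distribution of average log2 CPM over the 14016 entries (x axis, in bins of 0.25; y axis, number of entries), with a line at each member that has an entry. Muc5b, Scgb3a1, Bpifa1 and Agr2 lie in its upper tail, and Scgb1a1 and Bpifb1 lie in the bulk of it.

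The start regions of Scgb1a1, Bpifa1 and Scgb3a1 are shown as examples. Those of Bpifb1 and Agr2, which also have a level, were searched and are not printed. Sequences are from RefSeq on GRCr8, which may not be the build behind the table, and run over the 100 bases before the annotated start of transcription, on the strand of the gene. Capitals mark the letters TATAAA of a TATA box, matched by letters alone. Whether they act as one was not tested. The stretch of Scgb1a1 is chr1:215409687-215409786 on the minus strand, that of Bpifa1 chr3:163087865-163087964 on the plus strand, and that of Scgb3a1 chr10:34469066-34469165 on the plus strand.
Scgb1a1: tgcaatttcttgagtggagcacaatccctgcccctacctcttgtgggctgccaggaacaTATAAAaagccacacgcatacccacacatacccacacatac
Bpifa1: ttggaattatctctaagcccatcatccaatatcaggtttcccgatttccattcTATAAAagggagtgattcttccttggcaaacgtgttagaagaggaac
Scgb3a1: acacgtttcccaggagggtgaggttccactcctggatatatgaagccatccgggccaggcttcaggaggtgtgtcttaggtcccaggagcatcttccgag

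In Scgb1a1 these letters began 41 bases before the annotated start, and in Bpifa1 47 bases before it. Scgb3a1 held no TATAAA in this stretch or in the full window of 300 bases, which runs over 250 bases before the start and 50 after it. Windows were found for 7 of the 10 members, which are those printed above and Bpifb1, Agr2, Ltf and Tff3. Muc5b, Muc5ac and Dmbt1 had no window and were not searched. Searched on both strands, TATAAA stood in 4 of these 7 windows, against 14.2% of all 33469 windows. In Bpifb1 it lay 128 bases before the start. Within the 100 bases before the start it stood in 3 of 7, with Tff3 as the other one, against 5.78% of all. The letters TGTTTAC of a forkhead site, CCGGAAG of an ETS site and TGACGTGG of an unfolded protein response element stood in none of the 7, and in 3.78%, 8.75% and 0.595% of all windows. The motifs do not overlap one another in letters. Whether these letters bear on the levels of the members was not tested, and levels are not compared per length.

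Among the members with no entry, Dmbt1 encodes a scavenger receptor that binds bacteria in mucus and saliva, Tff3 a trefoil peptide that mucous cells release with mucins, and Ltf the iron-binding protein lactoferrin of serous glands and neutrophils. The trefoil genes lie in a row, and Tff2, next to Tff3, was at 7.63 log2 CPM, or 199 CPM, while Tff1 was at -0.96 log2 CPM. Of the listed neutrophil genes, 0 of 8 had an entry.

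Other products of airway glands and goblet cells were found beside the members. Of 24 listed genes, 16 had an entry, with a median of 3.58 and a range between -0.96 and 7.63 log2 CPM. Over those of at least 0 log2 CPM the median was 4.35. The highest were Tff2 at 7.63, Clca1, a secreted goblet cell protein, at 6.11, Pigr, which carries antibodies across gland epithelium, at 5.69, and Gp2, a protein that binds bacteria, at 5.63. The lowest were Lpo at 0.44, Azgp1 at -0.01 and Tff1 at -0.96 log2 CPM. The median of all entries was 3.14.

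The transcription factors of gland and goblet cells all had an entry, 11 of 11, with a median of 1.69 log2 CPM, or 2.64 over those of at least 0 log2 CPM. Elf3 at 4.76 and Ehf at 4.62, ETS factors of epithelia, were highest, followed by Xbp1 at 4.55 and Creb3l1 at 3.75, which drive the secretory machinery. Spdef, which goblet cells need in mouse, was at 1.69, and the forkhead factors Foxa1, Foxa2 and Foxa3 were at 1.64, -0.25 and -0.40 log2 CPM. Genes of fluid and ion transport had an entry for 10 of 12, with a median of 2.58, or 3.39 over those of at least 0 log2 CPM. They ranged between -0.48 and 6.73 log2 CPM, and the median of 2.58 lay below the 3.14 of all entries. Slc26a9 and Cftr were lowest, at -0.48 and -0.10 log2 CPM. Highest was Slc12a2, a chloride uptake carrier, at 6.73. Next came Ano1, a chloride channel gene, at 4.08 and Aqp5, the water channel of gland acini, at 3.81. Scnn1a, a sodium channel subunit, followed at 3.74 log2 CPM.

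**Figure D3:**
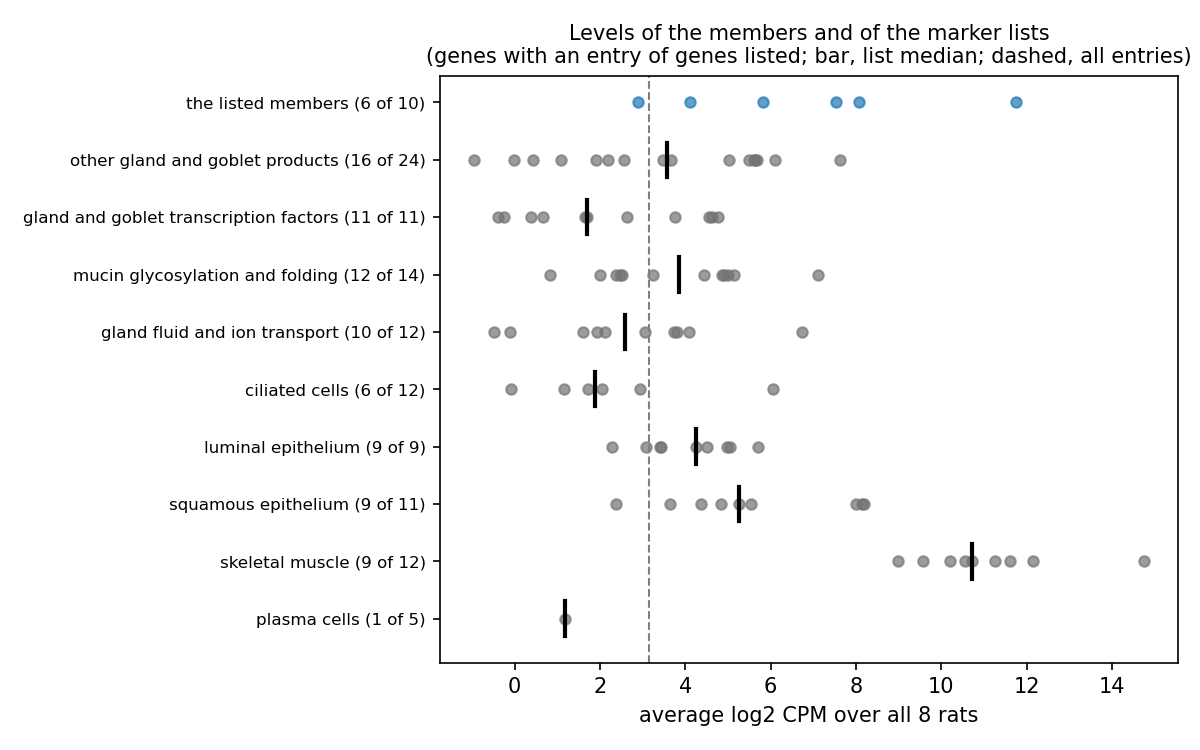
Average log2 CPM (x axis) of each gene with an entry, for the members in the top row and for 9 marker lists below, with the number with an entry of the number listed. Black bars are list medians and the dashed line is the median of all entries, 3.14. Skeletal muscle genes lie between 8.99 and 14.75, and Muc5b at 11.74 lies within their range. These are shares of counts, not corrected for transcript length, and not an order of abundance.

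The label of the tissue was set against markers. Of 12 skeletal muscle genes, 9 had an entry, with a median of 10.71 log2 CPM. They included the fast myosin gene Myh4 at 14.75, Ckm, muscle creatine kinase, at 12.15, Tnnt3, the fast troponin T, at 11.60, and Acta1, skeletal actin, at 11.26. The fast myosin genes Myh1 and Myh2 and the extraocular and laryngeal myosin gene Myh13 have no entry under those symbols. Older symbols were searched for the members only. Epithelial genes were also present. All 9 luminal epithelial genes had an entry, with a median of 4.26, led by Cdh1 at 5.71, Krt19 at 5.05, Krt8 at 4.97 and Cldn4 at 4.51 log2 CPM. Of 11 squamous genes, 9 had an entry, with a median of 5.25, led by Krt4 at 8.18, Krt15 at 8.14, Krt13 at 8.01 and Krt5 at 5.53. Ciliated cell genes had an entry for 6 of 12, with a median of 1.89. Tppp3, which other cells make too, was at 6.05, Dnah5 at 2.94, Dnah9 at 2.04 and Ccdc39 at 1.73, and Foxj1, the factor that defines these cells, had no entry.

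Jchain, which joins antibody units, was at 1.19 log2 CPM and was the 1 plasma cell gene of 5 with an entry. Whether the counts of Muc5b, Scgb3a1 and Bpifa1 came with the epithelial genes in the same rats was not tested, because 1 average per gene does not show how counts were shared among the 8 rats.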

How the data were processed

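Bulk RNA sequencing covered 8 TA muscle samples, which the genotype in the labels divides into 4 Pink1-/- and 4 WT. Per the labels, libraries were made with a TruSeq RNA kit from total RNA, and RSEM and edgeR 3.9 are the tools in the submitters' processing notes. Which build, annotation and low-count filter lie behind the values is not stated in these sources. The deposited table holds, per gene, an average log2 CPM that the authors computed over all samples. Its other 5 columns of results (fold change, likelihood ratio, p-value, adjusted p-value and status) are the authors' comparison of Pink1-/- with WT and were not used. Depth per library is unknown.

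Linear CPM was computed as 2 to the power of the average, and the sum over the 14016 entries was 1017595. Ranks and percentiles are over all entries. For the 64 symbols with several entries, the highest level was taken. Older symbols were searched for the members only, and genes of the lists, families and neighborhoods under the listed symbol only. A missing entry of those genes can thus also reflect naming. Symbols were matched to RefSeq (GRCr8), with 12148 entries matched. Its promoter windows were searched for exact motifs, a search tested on simulated data. The members and the 10 marker lists (118 genes, 83 with an entry) were chosen with earlier results of these data known, and another list is not reported here. Genes named are the members, their family and genome neighbors, the 4 highest of each list, and others chosen after their values were seen. Those others are Spdef, Foxa1, Foxa2, Foxa3, Ern2, Cftr, Slc26a9, Lpo and Azgp1. Foxj1, Myh1, Myh2 and Myh13, which have no entry, were also chosen in this way. Alternatives were a sum over entries of a symbol, percentiles over entries of at least 1 log2 CPM, and list medians over genes of at least 0. The work was done in Python 3.11.15 with pandas 2.3.3, numpy 2.4.6 and matplotlib 3.10.9.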

Additional observations from a re-analysis of the deposited data

How the results depend on the processing

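Over the 11870 entries with an average of at least 1 log2 CPM, the percentiles became 99.8 for Muc5b, 98.6 for Scgb3a1, 97.7 for Bpifa1, 89.2 for Agr2, 62.6 for Scgb1a1 and 35.0 for Bpifb1, since that alternative removes the lowest entries. Over genes of at least 0 log2 CPM, list medians became 4.35 for other gland and goblet products, 2.64 for transcription factors, 3.39 for fluid and ion transport and 2.04 for ciliated cells, and the other 5 medians were the same. Summing entries of a symbol could not change a member, because each member with an entry has only 1. Levels per kilobase of coding sequence were not run, because no coding lengths were at hand. Each of these settings rereads 1 average per gene. Without the depth of each library, what depth limits cannot be stated, and a gene with no entry cannot be called absent from the tissue. For genes other than the members, a different symbol can also leave a gene without an entry.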
